A study of Mus musculus with 12 samples.

Results

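Checkpoint and activation receptors are surface proteins of T cells that brake, boost or mark the response to antigen. The genes of 9 of them (Ctla4, Pdcd1, Lag3, Tigit, Havcr2, Icos, Cd44, Cd69 and Cd83) were followed, of 19057 named on the platform, in mouse regulatory T cells (Tregs) on 12 Illumina bead arrays. Every probe whose gene symbol in the platform annotation is one of these names was taken, which gave 20 of the 45281 probes. Of these, 19 probes of 8 genes could be tested, because 3 or more of the 12 arrays gave them a detection p-value under 0.05, which held for 20367 probes of the whole platform. The probe of Lag3 did not pass. Cd44 had 9 probes, Havcr2, Icos and Cd69 had 2 each, and the other genes had 1. Probes of 1 gene share its transcripts and are not independent measurements.

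The Tregs were taken from perigonadal fat or from spleen of C57BL/6 mice fed chow. The arrays form 4 groups of 3: fat knockout, fat control, spleen knockout and spleen control. Controls carried Foxp3-YFP-Cre, and knockouts carried this Cre together with a floxed Tbx21, the gene for the transcription factor T-bet. Cre is thus present in all 4 groups, and deletion is limited to cells that express Foxp3. The labels give neither age nor sex nor how many mice each array holds, so every p-value reflects only how these 12 samples vary, part of which may be technical.

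Between 27.03 and 40.85% of probes were detected per array, and arrays of 1 group correlated at 0.778 to 0.842 in fat and at 0.869 to 0.909 in spleen. The array names in the labels read as 3 slides, each with 1 array of every group and all 4 of the same replicate number, and each group sits at 1 letter (A to D) on all of them, so that group and place on the slide cannot be told apart. Array 1 of a group is therefore the one on slide 1, and so on. Tbx21 read 6.59, 7.54 and 4.93 on the log2 scale in fat knockouts, 5.48, 7.24 and 5.16 in fat controls, 4.68, 5.72 and 4.71 in spleen knockouts, and 4.54, 4.87 and 5.18 in spleen controls. It differed between genotypes by +0.39 in fat and by +0.18 in spleen, which did not pass (limma adjusted p = 1 in both), and whether its 1 probe lies in the deleted part is unknown, so its signal is no test of the labels. Foxp3, the lineage factor of Tregs, had 3 tested probes, and none of them passed in any comparison.

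CTLA-4 and PD-1 (the product of Pdcd1) are the best known brakes of T cells: CTLA-4 takes the ligands CD80 and CD86 away from the activating receptor CD28, and PD-1 recruits a phosphatase to the stimulated receptor. LAG-3, TIGIT and TIM-3 (the product of Havcr2) are further inhibitory receptors, which bind MHC class II, CD155 and galectin-9 among other ligands, while ICOS is a costimulatory receptor of the CD28 family. CD44 binds hyaluronan and stays high on T cells that have met antigen, CD69 appears soon after stimulation and keeps cells in a tissue by drawing the exit receptor S1PR1 inside, and CD83 is a marker of mature dendritic cells that activated lymphocytes and Tregs can also carry. Tregs use CTLA-4 to suppress other T cells, and Tregs that live in fat are known for an activated state.

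The promoters of 5 of the 9 genes are in the RefSeq sequence table used here (build GRCm38.p6). The 250 bases before the start are printed for Ctla4, Tigit and Cd44, 3 of the 5 genes called higher in fat over both genotypes below, 5′ to 3′ on the strand of the gene. Capitals mark each match to the core of the NFAT site, GGAAA, which reads TTTCC on the other strand. NFAT is the calcium-driven factor of T cell activation. The windows are chr1:60908775-60909024 (+ strand) for Ctla4, chr16:43664185-43664434 (- strand) for Tigit and chr2:102901666-102901915 (- strand) for Cd44.
Ctla4: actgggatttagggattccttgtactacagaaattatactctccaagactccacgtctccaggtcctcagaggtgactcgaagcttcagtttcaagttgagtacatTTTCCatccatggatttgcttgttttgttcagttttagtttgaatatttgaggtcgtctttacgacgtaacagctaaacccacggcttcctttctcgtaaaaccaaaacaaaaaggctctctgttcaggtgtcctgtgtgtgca
Tigit: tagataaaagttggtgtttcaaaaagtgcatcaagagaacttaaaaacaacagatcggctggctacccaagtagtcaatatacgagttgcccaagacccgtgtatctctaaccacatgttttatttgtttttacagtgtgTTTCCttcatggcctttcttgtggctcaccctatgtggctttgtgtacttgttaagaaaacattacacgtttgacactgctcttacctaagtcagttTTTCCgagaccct
Cd44: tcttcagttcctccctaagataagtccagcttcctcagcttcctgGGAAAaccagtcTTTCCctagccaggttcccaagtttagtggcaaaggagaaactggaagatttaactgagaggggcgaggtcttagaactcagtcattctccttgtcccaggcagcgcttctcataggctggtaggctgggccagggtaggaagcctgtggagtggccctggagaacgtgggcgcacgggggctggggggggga
The core occurs 1 time in the Ctla4 window (on the strand opposite to the gene) and 2 times each in those of Tigit, Cd44 and Pdcd1. Such a short core is common: 55.6% of the 32851 promoter windows in the table hold at least 1. The AP-1 site TGANTCA, in 6.75% of windows, was found 1 time, in that of Havcr2. Neither the T-box site AGGTGTGA (1.12% of windows), which T-bet binds, nor the forkhead site GTAAACA (3.17%), which Foxp3 and FOXO1 bind, was found in any of the 5. Both strands were searched, and a match is only a description of the letters. Ctla4 lies between Cd28 and Icos on chromosome 1 in this build.

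**Figure D1:**
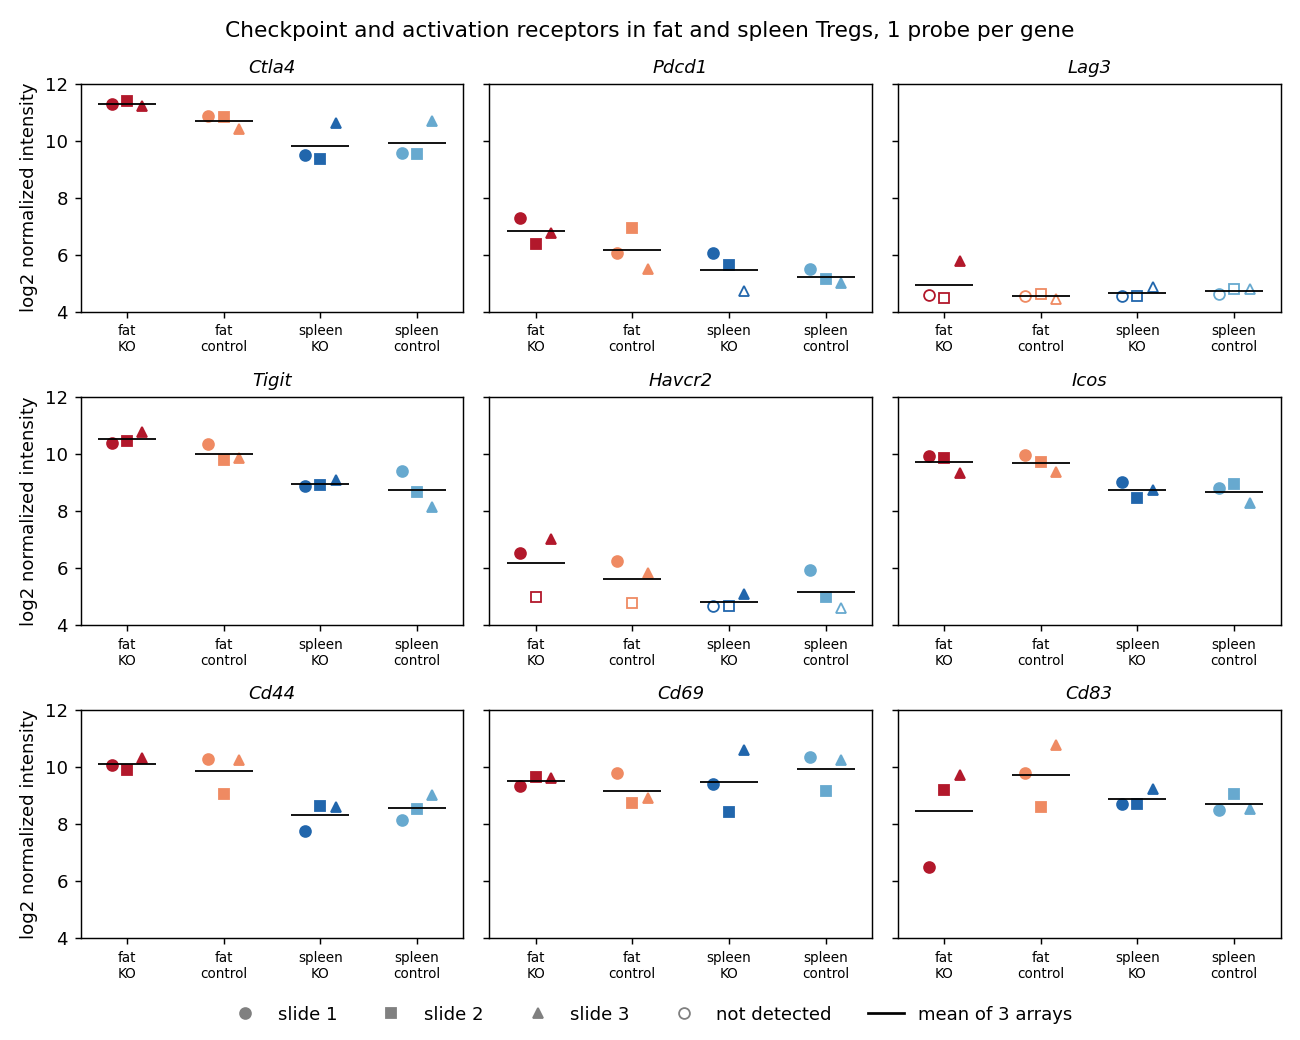
Log2 normalized intensity (vertical axis) of all 9 receptor genes, untested Lag3 included, in the 12 arrays, by group from left to right: fat knockout (KO), fat control, spleen knockout and spleen control. For a gene with several probes the one with the highest mean is drawn; the shape of a point is its slide, open points were not detected and black lines are means of 3 arrays. Ctla4, Tigit, Icos and Cd44 lie higher in most fat arrays, and the 2 spleen arrays of slide 3 are the highest spleen arrays for Ctla4.

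Fat Tregs had more signal than spleen Tregs for 5 of these genes, Cd44, Icos, Tigit, Pdcd1 and Ctla4, over both genotypes. That comparison was added after the data had been seen, and Pdcd1 and Ctla4 passed in neither genotype alone. In knockouts, 5 probes of 3 genes (Tigit, Icos and Cd44) were called higher at a limma adjusted p below 0.05, where 2.84% of all tested probes were, and none was called lower, where 1.72% of all were. Of the 19 probes, 3 (the first of Havcr2 and the fifth and eighth of Cd44) were detected in no spleen array and entered through fat alone, so they had little room to be lower there. Another 2 (the third and seventh of Cd44) were detected in only 1 or 2 spleen arrays and needed fat arrays to enter. The following medians and overlaps, by a condition added after the data had been seen, are therefore given for the 14 probes of 8 genes that at least 3 of the 6 spleen arrays detected, beside the 16345 probes of the platform that met the same condition. In knockouts the median log2 difference of the 14 was +1.48, beside -0.18 over all such probes, and +1.06 without background correction. In 10 of the 14, from 5 genes, every fat knockout array lay above every spleen knockout array, as in 8.15% of all such probes. Without slide 3 all 5 calls in knockouts were lost (adjusted p 0.0542 to 0.141), and Ctla4 and the second Cd44 probe passed. The differences of the 5 were then +1.51 for Tigit, +2.08 for Icos and +2.61, +1.78 and +1.56 for Cd44. With slide 3 they were +1.57, +1.73, +2.29, +1.77 and +1.48, from more arrays. In controls, no receptor probe passed, where 2.9% of all tested probes were called higher and 1.76% lower. There the lowest adjusted p was 0.0562, and 7 of the 19 had an unadjusted p below 0.05. The median of the 14 was +0.98 beside -0.18 (+0.83 without background correction), and 6 of them, from 4 genes, did not overlap, as 8.05% of all such probes did.

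The receptor medians of both genotypes pointed the same way, while Cd83 and the second Cd69 probe differed in sign between them. A comparison of the mean of both fat groups with the mean of both spleen groups was therefore added after the data had been seen. In it 10 probes of 5 genes (Ctla4, Pdcd1, Tigit, Icos and Cd44) were called higher, where 6.08% of all tested probes were, and 0 lower, where 6.52% were. Among these 10, the seventh Cd44 probe was detected in 3 of 3 arrays of each fat group but in 1 of 3 of each spleen group. It thus passed the detection filter through fat, and neither the count nor the 6.08% was limited to probes detected in spleen. The median of the 14 was +1.14 beside -0.18 (+0.95 without background correction). In 5 of the 14, that of Tigit, both of Icos and 2 of Cd44, all 6 fat arrays lay above all 6 spleen arrays, as in 3.42% of all such probes. Without background correction the median of all 19 probes was +0.69, +0.54 and +0.51 in knockouts, in controls and over both, against +1.45, +0.91 and +1.07 with it. An array of RNA from a cell population cannot tell fewer cells of a type from less RNA per cell.

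**Figure D2:**
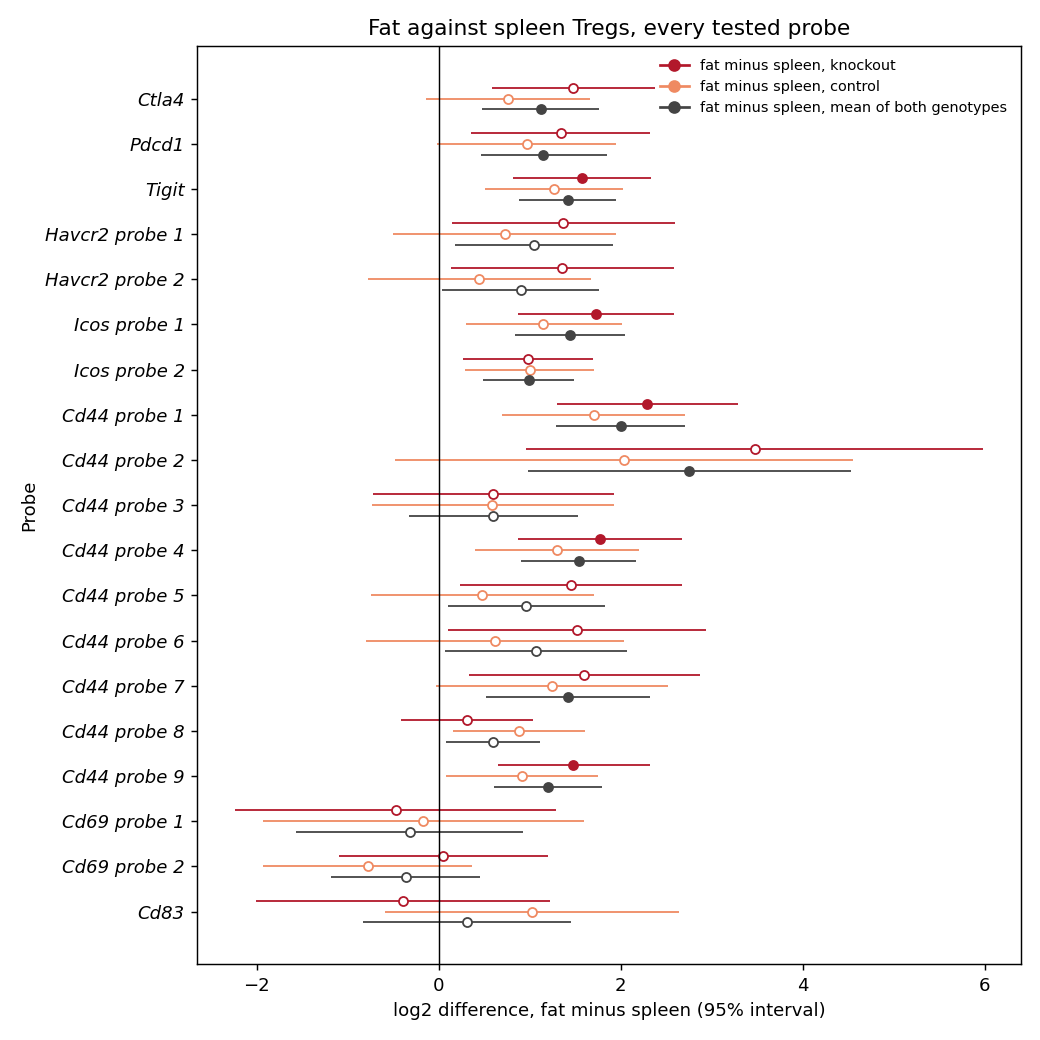
Log2 difference of fat minus spleen (horizontal axis) with its 95% interval for the 19 tested probes, in knockouts, in controls and for the mean of both genotypes. Filled points passed an adjusted p of 0.05: 5 in knockouts, 0 in controls and 10 in the mean. The intervals of both Cd69 probes and of Cd83 include 0 in all 3.

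Among the inhibitory receptors, Tigit was higher in fat over both genotypes, by 1.42 on the log2 scale. It read 10.37, 10.44 and 10.78 in fat knockouts, 10.36, 9.80 and 9.87 in fat controls, 8.88, 8.91 and 9.09 in spleen knockouts, and 9.39, 8.68 and 8.15 in spleen controls. Each fat array lay above each spleen array, with the smallest gap between fat control 2 and spleen control 1. The rise was 2.67-fold over both genotypes (SE 0.25, 95% interval 0.88 to 1.95, adjusted p = 0.00263), and it kept its call in all 25 alternatives (highest adjusted p 0.0382). In knockouts it was +1.57 (SE 0.35, adjusted p = 0.0237), a call that was lost without fat knockout 2 or 3 or any of the 3 spleen knockouts (adjusted p 0.0538 to 0.0838). In controls it was +1.27 (adjusted p = 0.0606), and +1.59 without spleen control 1 (adjusted p = 0.0406). It passed there in 7 of 26 alternatives. The order of the group means was fat knockout (10.53 ± 0.22, SD, n = 3), fat control (10.01 ± 0.31), spleen knockout (8.96 ± 0.11) and spleen control (8.74 ± 0.62), and within a tissue the neighbours did not pass.

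Ctla4 was higher in fat over both genotypes by 1.12 on the log2 scale, or 2.18-fold. It read 11.28, 11.38 and 11.22 in fat knockouts, 10.86, 10.83 and 10.40 in fat controls, 9.48, 9.34 and 10.63 in spleen knockouts, and 9.58, 9.54 and 10.68 in spleen controls. The 2 spleen arrays of slide 3 stood more than 1 unit above the other 4 spleen arrays and also above fat control 3. The mean difference had an SE of 0.29 (95% interval 0.48 to 1.76, adjusted p = 0.0265). On slides 1, 2 and 3 it was +1.54, +1.66 and +0.16. Its call was lost without a filter on dim probes (adjusted p = 0.0513) and without any of 6 single arrays, fat knockout 2, fat control 1 and arrays 1 and 2 of spleen knockout and of spleen control (adjusted p 0.0521 to 0.0694). In knockouts the difference was +1.48 (SE 0.41, adjusted p = 0.0685), and without both spleen arrays of slide 3 it was +1.89 (adjusted p = 0.0143). Leaving out only spleen knockout 3 (adjusted p = 0.0306) or spleen control 3 (adjusted p = 0.0477) also made it pass. The difference in knockouts passed in 9 of 26 alternatives. In controls it was +0.76 (95% interval -0.14 to 1.66, adjusted p = 0.362).

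Pdcd1, for PD-1, was near the detection limit in spleen. It read 7.30, 6.38 and 6.76 in fat knockouts, 6.07, 6.95 and 5.50 in fat controls, 6.07, 5.63 and 4.72 in spleen knockouts (the last not detected), and 5.50, 5.13 and 5.00 in spleen controls. Fat and spleen did not overlap within either genotype, but fat control 3 and spleen control 1 were level to the second decimal, and fat control 3 lay below spleen knockouts 1 and 2. Over both genotypes the rise was 1.15 (SE 0.32, 95% interval 0.46 to 1.85, 2.22-fold, adjusted p = 0.0349). Leaving out any of 9 arrays ended this call, namely fat knockouts 1 and 3, fat controls 1 and 2, spleen knockouts 2 and 3 and the 3 spleen controls (adjusted p 0.0533 to 0.0793). It also ended without a filter on dim probes, with a trend in eBayes, without slide 3 and without its spleen arrays (adjusted p 0.0591 to 0.135). The separate differences were +1.34 in knockouts (adjusted p = 0.133) and +0.97 in controls (adjusted p = 0.282).

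Havcr2, for TIM-3, was near the detection limit in both tissues and passed in no comparison of all 12 arrays. Its first probe read 5.96, 4.83 and 6.65 in fat knockouts and 6.56, 4.45 and 4.53 in fat controls, of which fat knockouts 1 and 3 and fat control 1 were detected. It was detected in none of the 6 spleen arrays. In knockouts the difference was +1.37 (SE 0.56, adjusted p = 0.226), at least 1.53-fold with 2 of 3 fat arrays detected, a bound against the lowest detected signal of the spleen arrays. In controls it was +0.73 (adjusted p = 0.542), at least 1.22-fold with 1 of 3 fat arrays detected. The second probe read 6.53, 4.97 and 7.03 in fat knockouts, 6.25, 4.77 and 5.82 in fat controls, 4.67, 4.68 and 5.10 in spleen knockouts, and 5.94, 4.98 and 4.59 in spleen controls. Both fat arrays of slide 2 were undetected by either probe. The second probe differed by +1.35 in knockouts (adjusted p = 0.23) and by +0.44 in controls (adjusted p = 0.729). Over both genotypes it differed by +0.90 (adjusted p = 0.171), and it passed only without fat knockout 2 (+1.20, adjusted p = 0.0467).

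Lag3 was detected in 1 of the 12 arrays, fat knockout 3, at 5.77 on the log2 scale. The other 11 arrays read 4.44 to 4.86 and had a detection p-value of at least 0.05, so no difference was tested for this receptor.

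The costimulatory receptor Icos was higher in fat by both of its probes over both genotypes. The first read 9.50, 8.87 and 9.19 in fat knockouts, 9.47, 8.75 and 8.54 in fat controls, 7.29, 6.94 and 8.16 in spleen knockouts, and 7.52, 7.63 and 8.13 in spleen controls. The second read 9.94, 9.87 and 9.34 in fat knockouts, 9.95, 9.70 and 9.36 in fat controls, 9.0, 8.45 and 8.75 in spleen knockouts, and 8.82, 8.93 and 8.26 in spleen controls. By both probes the lowest fat array lay above the highest spleen array. By the first probe the spleen arrays of slide 3 were the highest in spleen. The rise by the first probe was 1.44 (SE 0.28, 2.72-fold, adjusted p = 0.0052), a call kept in all 24 alternatives. By the second it was 0.99 (SE 0.23, 1.99-fold, adjusted p = 0.0144), which was lost without slide 3 (adjusted p = 0.0509) and without its 2 spleen arrays (adjusted p = 0.0641).

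Within genotypes the Icos probes differed in whether they passed. In knockouts the first gave +1.73 (SE 0.39, 3.31-fold, adjusted p = 0.0274) and the second +0.98 (SE 0.33, adjusted p = 0.126). The call of the first was lost without fat knockout 1 or 3 or spleen knockout 1 or 2 (adjusted p 0.0628 to 0.12). In controls they gave +1.15 (adjusted p = 0.128) and +1.00 (adjusted p = 0.111), with positive differences on all 3 slides by either probe.

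Cd44, the hyaluronan receptor of antigen-experienced T cells, had the largest fat minus spleen differences among the 8 tested genes, in either genotype and over both. By the first of its probes it read 10.13, 9.80 and 9.83 in fat knockouts, 10.33, 8.40 and 9.46 in fat controls, 7.03, 7.67 and 8.18 in spleen knockouts, and 7.61, 7.90 and 7.59 in spleen controls. All 6 fat arrays lay above all 6 spleen arrays, with fat control 2 the lowest in fat. Over both genotypes the rise was 2.00 (SE 0.32, 3.99-fold, adjusted p = 0.00173) and was kept in all 24 alternatives. In knockouts it was 2.29 (SE 0.46, 4.89-fold, adjusted p = 0.014), a call lost without spleen knockout 1 or 2 (adjusted p 0.0679 and 0.0516). In controls it was +1.70 (adjusted p = 0.0562), and +2.20 without fat control 2 (adjusted p = 0.0129). It passed there in 8 of 25 alternatives.

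The fourth Cd44 probe gave the same separation of the tissues: 10.08, 9.89 and 10.34 in fat knockouts, 10.28, 9.05 and 10.27 in fat controls, 7.77, 8.64 and 8.59 in spleen knockouts, and 8.15, 8.52 and 9.02 in spleen controls. It rose by 1.54 over both genotypes (SE 0.29, adjusted p = 0.00479, kept in all 25 alternatives) and by 1.77 in knockouts (adjusted p = 0.0311), where leaving out any of the 6 knockout arrays ended the call (adjusted p 0.0569 to 0.127). In controls it was +1.30 (adjusted p = 0.103), and +1.71 without fat control 2 (adjusted p = 0.0346). It passed there in 2 of 26 alternatives. The ninth probe read 9.80, 9.64 and 10.10 in fat knockouts, 9.75, 8.76 and 10.17 in fat controls, 8.05, 8.27 and 8.77 in spleen knockouts, and 8.75, 8.36 and 8.83 in spleen controls. There fat control 2 overlapped the upper spleen arrays. It rose by 1.20 over both genotypes (SE 0.27, adjusted p = 0.0126, but 0.0695 without slide 3) and by 1.48 in knockouts (adjusted p = 0.0492), a call kept only without fat control 2 or fat control 3 when 1 array was left out (adjusted p 0.062 to 0.168 without any other).

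The second Cd44 probe had the widest spread. It read 9.21, 9.31 and 11.00 in fat knockouts, 8.84, 6.65 and 9.69 in fat controls, 4.59 (not detected), 5.78 and 8.74 in spleen knockouts, and 5.39, 5.22 and 8.47 in spleen controls. In each group the array of slide 3 was the highest. The difference in knockouts was +3.47 (SE 1.15, adjusted p = 0.126), and it passed with the slide as a block (adjusted p = 0.0129) and without spleen knockout 3 (+4.66, adjusted p = 0.0457). Over both genotypes it was 2.75 (adjusted p = 0.0461), which was lost without any of 9 arrays, all but fat control 2 and the third arrays of both spleen groups (adjusted p 0.0624 to 0.109). It fell short of the threshold too without background correction, where it was 1.81 (adjusted p = 0.0521), and without a filter on dim probes (adjusted p = 0.163). The seventh probe, detected in 8 of 12 arrays, was higher by 1.42 over both genotypes (adjusted p = 0.0429) and lost this call without any array other than fat knockout 2, fat control 2 and spleen control 3 (adjusted p 0.0566 to 0.1). It was 0.63 with the authors' normalized values (adjusted p = 0.061) and without background correction (adjusted p = 0.0612), and without slide 3 it was 1.24 (adjusted p = 0.0888). In knockouts it differed by +1.60 (adjusted p = 0.168, and 0.0382 with the slide as a block).

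The other 4 Cd44 probes were dim and none of them passed. They were detected in 5 (the third), 4 (the fifth), 8 (the sixth) and 3 (the eighth) of the 12 arrays. Over both genotypes they differed by +0.60, +0.96, +1.07 and +0.60 in that order, with adjusted p-values of 0.421, 0.143, 0.16 and 0.126. No spleen array detected the fifth or the eighth, so their differences are bounds only: at least 1.68-fold in knockouts and 1.15-fold in controls for the fifth, and at least 1.41-fold in controls for the eighth. The annotation does not say here which exons of Cd44, a gene with many splice forms, the 9 probes read.

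**Figure D3:**
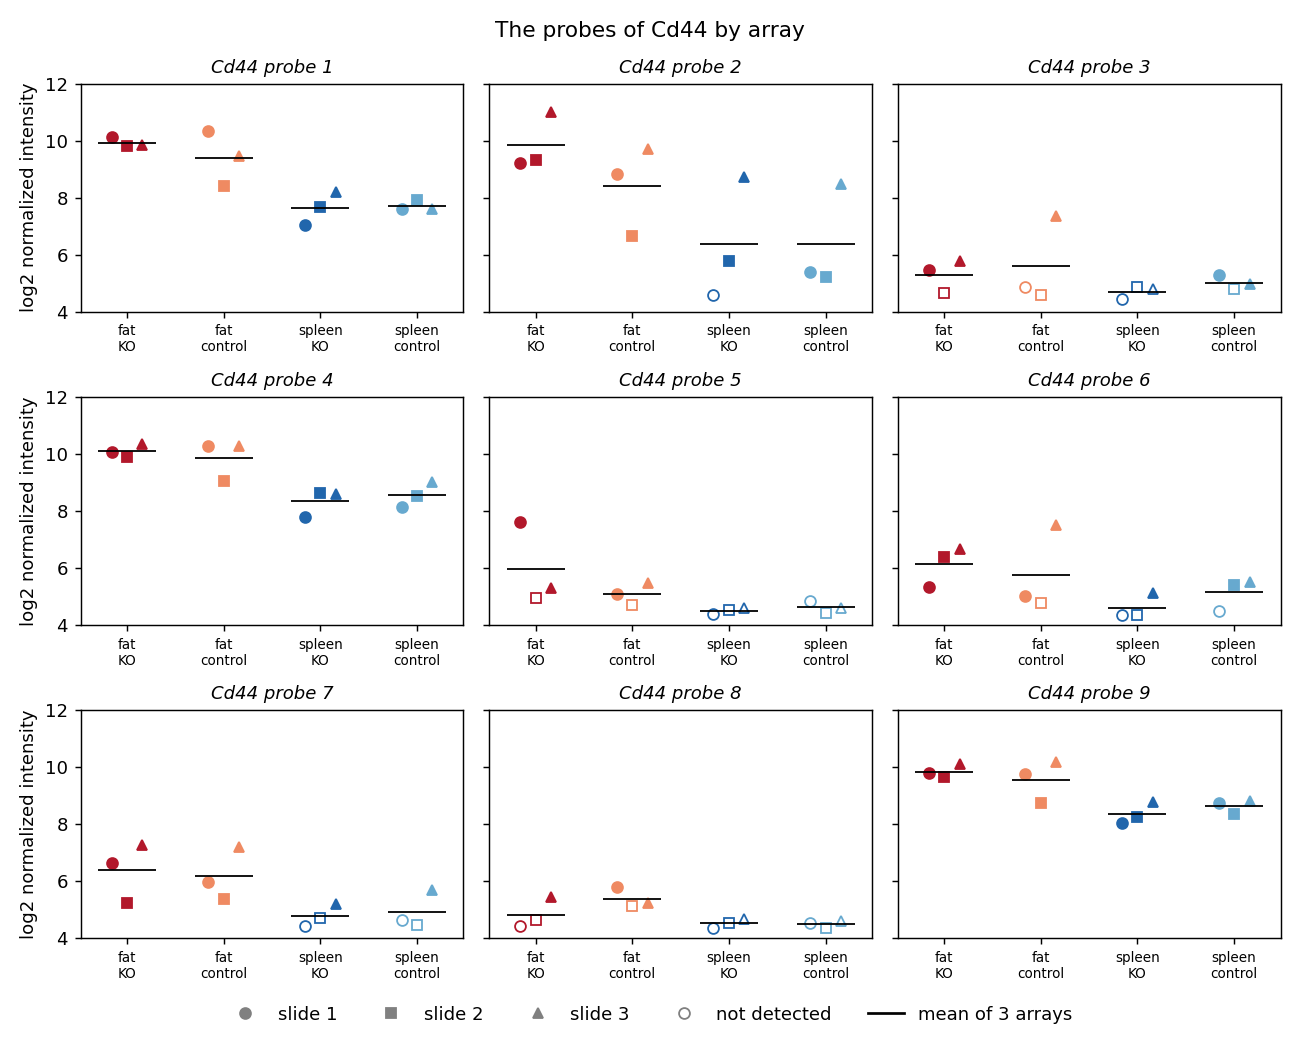
Log2 normalized intensity (vertical axis) of the 9 Cd44 probes in the 12 arrays, by group from left to right: fat knockout (KO), fat control, spleen knockout and spleen control; shapes are slides, open points were not detected and black lines are means of 3 arrays. Probes 1 and 4 separate all fat from all spleen arrays, and probe 2 is highest on slide 3 in every group.

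Cd69, the early activation receptor, did not pass in any comparison. Its first probe read 8.63, 8.33 and 8.81 in fat knockouts, 8.02, 9.13 and 8.97 in fat controls, 7.88, 8.70 and 10.61 in spleen knockouts, and 8.44, 7.42 and 10.77 in spleen controls. The second read 9.33, 9.65 and 9.61 in fat knockouts, 9.78, 8.75 and 8.92 in fat controls, 9.40, 8.42 and 10.60 in spleen knockouts, and 10.37, 9.17 and 10.24 in spleen controls. By both probes the fat arrays lay within the range of the spleen arrays, and by the first the 2 spleen arrays of slide 3 were the highest of all 12. Over both genotypes the differences were -0.32 (95% interval -1.57 to 0.93) and -0.36 (95% interval -1.18 to 0.45) for the first and second probe. On slide 3 the first probe differed by -1.80 in knockouts and by -1.80 in controls.

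The spleen arrays of slide 3 also differed from the other spleen arrays in Nr4a1, an immediate early factor of T cell receptor signalling, which was named after its values were seen. It read 7.62 in spleen knockout 3 and 7.92 in spleen control 3, against 4.58 and 4.59 in the other spleen knockouts and 5.62 and 4.63 in the other spleen controls, while all 6 fat arrays read 7.56 to 8.59. Nr4a2 of the same family read 7.01 in spleen knockout 3 and 7.44 in spleen control 3, and 4.62 to 5.70 in the other spleen arrays. The part of this in the values of Cd69 and Ctla4 was not tested.

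**Figure D4:**
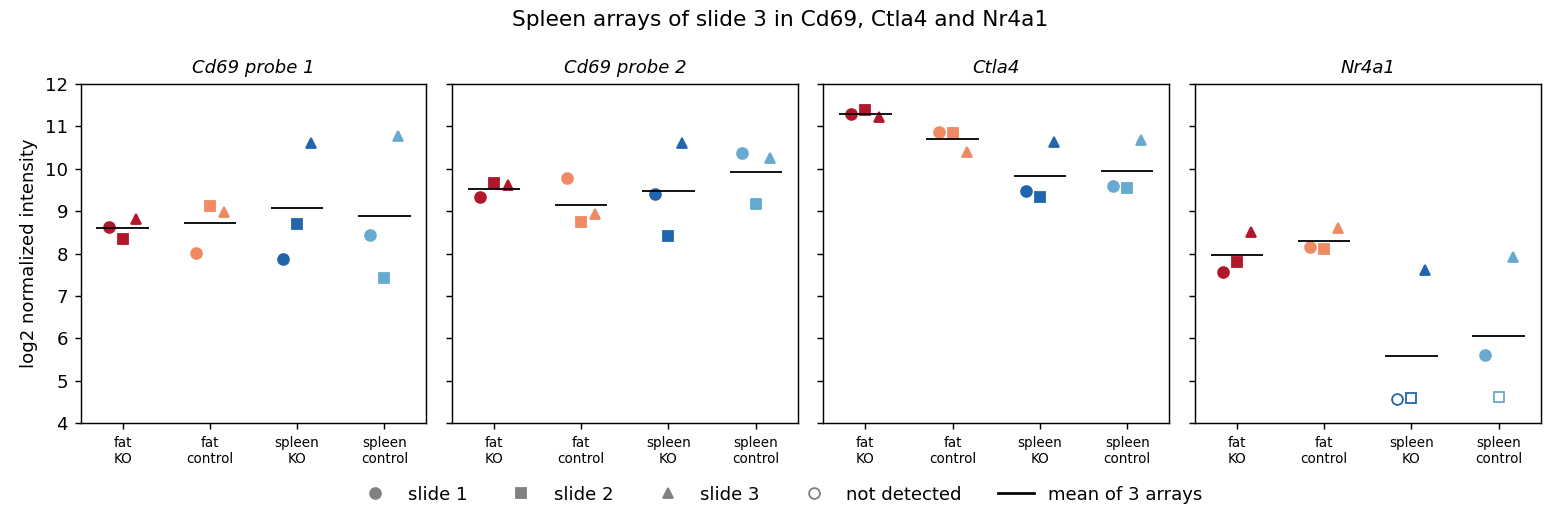
Log2 normalized intensity (vertical axis) by group from left to right (fat knockout, fat control, spleen knockout, spleen control), with shapes for slides, open points for not detected and black lines for means of 3 arrays. The panels hold both Cd69 probes, Ctla4 and Nr4a1, and the triangles of slide 3 are the highest spleen arrays in 3 of them, at 10.61 and 10.77 for the first Cd69 probe and at 7.62 and 7.92 for Nr4a1.

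Cd83 ranged more widely over the fat arrays than over the spleen arrays and passed in no comparison. It read 6.50, 9.20 and 9.73 in fat knockouts, 9.78, 8.60 and 10.78 in fat controls, 8.70, 8.70 and 9.22 in spleen knockouts, and 8.51, 9.07 and 8.52 in spleen controls. Fat knockout 1 was the lowest array and fat control 3 the highest. Fat minus spleen was -0.39 in knockouts (SE 0.74, adjusted p = 0.847) and +1.02 in controls (SE 0.74, adjusted p = 0.512). Fat control 3 was also the highest array in the mean of the dendritic cell markers (8.36) and of the macrophage and monocyte markers (9.76), and fat knockout 1 read 6.90 and 7.42 for these lists, where the other fat arrays read 6.61 to 7.33 and 7.34 to 8.54. Their part in Cd83 was not tested.

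No receptor gene passed between knockout and control arrays in either tissue. In fat, 0 of the 19 probes passed for knockout minus control in limma, none had an unadjusted p below 0.05, and 0.00982% of all tested probes passed. The median difference of the receptor probes was +0.38, beside 0 over all probes, and the lowest adjusted p was 0.893. Ctla4 and Tigit were the 2 genes in which every fat knockout array lay above every fat control array, as in 4.33% of all probes. For Tigit fat knockout 1 (10.37) and fat control 1 (10.36) were almost level. Ctla4 differed by +0.60 in fat (95% interval -0.30 to 1.50, adjusted p = 0.934), and Tigit by +0.53 (95% interval -0.23 to 1.28, adjusted p = 0.929). Cd83 differed by -1.24 (95% interval -2.85 to 0.37), with -3.28 on slide 1.

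In spleen the receptors were closer between genotypes. None of the 19 probes passed in limma, none had an unadjusted p below 0.05, 12 pointed down and 7 up, and 0% of all tested probes passed. The differences ran from -0.53 to +0.26 with a median of -0.11. For Ctla4 the difference was -0.12 (95% interval -1.02 to 0.78), for Tigit +0.22 (95% interval -0.54 to 0.98) and for Pdcd1 +0.26 (95% interval -0.72 to 1.25). The genotype difference in fat minus that in spleen passed for 0 receptor probes and for 0% of all tested probes, and none of the 19 had an unadjusted p below 0.05. It was +0.72 for Ctla4 (SE 0.59), +0.31 for Tigit (SE 0.49) and -1.42 for Cd83 (SE 1.05), each with an adjusted p of 1.

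**Figure D5:**
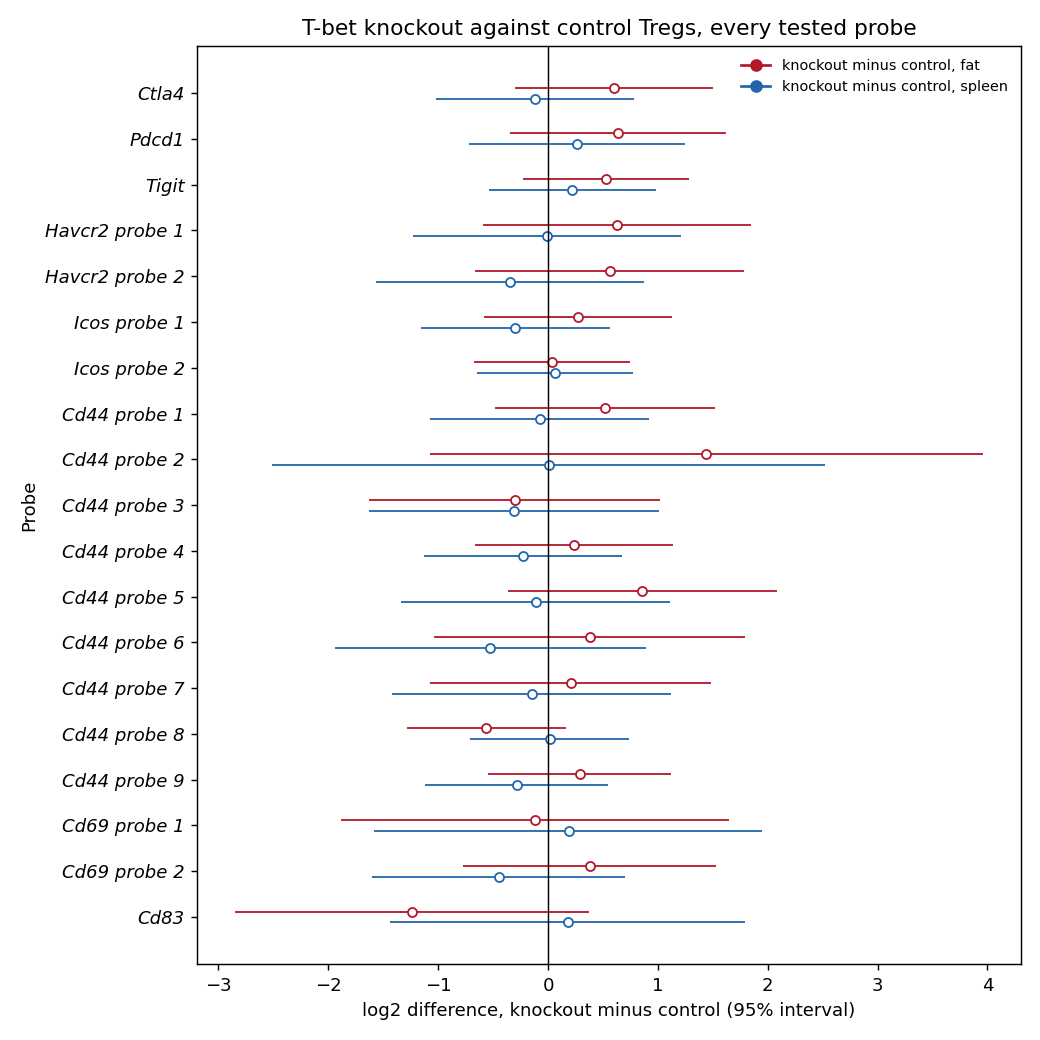
Log2 difference of knockout minus control (horizontal axis) with its 95% interval for the 19 tested probes in fat and in spleen. Every interval includes 0 and no point is filled, since no probe passed.

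The receptors' ligands and partners in the same arrays moved in both directions. By 1 probe per gene, 6.96% of the 10025 measured genes were called higher in fat over both genotypes and 7.96% lower. Of the 15 ligands and partners, 2 were called higher and 2 lower. Lgals3, a galectin reported as a ligand of LAG-3, rose by 4.14 (SE 0.46, adjusted p = 0.000126), and Cd80, a ligand of CTLA-4 and CD28, by 1.51 (SE 0.37, adjusted p = 0.0207). Cd80 was detected in 2 of 3 fat knockouts, 3 of 3 fat controls, 0 of 3 spleen knockouts and 1 of 3 spleen controls. It thus passed the detection filter through fat, and its smallest rise over the alternatives was 0.63. Cd200, whose receptor restrains myeloid cells, fell by 3.12 (SE 0.51, adjusted p = 0.00174), and Cd48, the ligand of CD244, fell by 1.18 (SE 0.28, adjusted p = 0.0182). In knockouts alone 1 passed upward and 1 downward, where 3.26% of genes were called higher and 2.17% lower, and in controls 1 and 2, where 3.4% and 2.26% were.

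Of 20 other receptors of inhibition or costimulation, 6 were called higher and 3 lower in fat over both genotypes, where 6.96% and 7.96% of all measured genes were. Klrg1, an inhibitory receptor of differentiated T cells, rose by 2.54 (SE 0.25, adjusted p = 5.38e-05), and Cd40lg, the CD40 ligand, by 2.41 (SE 0.33, adjusted p = 0.000635). Slamf6, a receptor of resting and memory-like T cells, fell by 2.93 on the log2 scale (SE 0.30, adjusted p = 7.47e-05), and Cd96, which shares the ligand CD155 with TIGIT, fell by 2.41 (SE 0.47, adjusted p = 0.00589). Slamf6 was detected in 0 of 3 fat knockout arrays, so its level there is known only as below the detection limit. In controls, where every array detected it, Slamf6 fell by 2.03 (SE 0.43). Of 11 other activation markers 1 passed upward and 3 downward. Il2ra, the IL-2 receptor alpha chain, rose by 1.50 (SE 0.28, adjusted p = 0.00421). The integrin gene Itgae (-2.07) and the surface marker Ly6c1 (-1.45) were lower, and both calls were lost without some single arrays: for Itgae without fat knockout 1, fat control 2 or 3, spleen knockout 2 or 3 or spleen control 2 (adjusted p 0.0507 to 0.057), and for Ly6c1 without fat knockout 2 or arrays 1 or 2 of either spleen group (adjusted p 0.0536 to 0.0639). Of 8 partners of CD69 and CD44 only Cd74 passed, the invariant chain that pairs with CD44 as receptor of the cytokine MIF, with a rise of 3.15 (SE 0.63, adjusted p = 0.00665).

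Among 18 genes of inhibitory signalling below the receptors, 2 were called higher and 4 lower, where 6.96% and 7.96% of all measured genes were. Rnf128, called higher, was detected in 3 of 3 fat knockouts, 2 of 3 fat controls and 0 of 3 arrays of each spleen group. It thus passed the detection filter through fat and had little room to be lower there. Ptpn6, for the phosphatase SHP-1, fell by 2.77 (SE 0.37, adjusted p = 0.000455). Dgkz, which removes diacylglycerol, fell by 1.96 (SE 0.33, adjusted p = 0.00202), and Csk, the kinase that restrains LCK, fell by 1.43 (SE 0.35, adjusted p = 0.0194). Of 7 genes of CTLA-4 trafficking and turnover, Trat1, whose adaptor carries CTLA-4 to the surface, fell by 1.87 (SE 0.36, adjusted p = 0.00528). The adaptor gene Lax1 (-1.39, adjusted p = 0.0271) and the vesicle gene Rab11a (+1.19, adjusted p = 0.0485) also passed, but kept their calls without only 4 and 2 of the 12 single arrays. The call of Lax1 was kept without fat knockout 2, fat control 3, spleen knockout 2 or spleen control 1, and ended without any other (adjusted p up to 0.0667). That of Rab11a was kept without fat knockout 1 or fat control 3, and ended without any other (adjusted p up to 0.103). It ended with the slide as a block as well (adjusted p = 0.0723), and without background correction the difference was +0.51 (adjusted p = 0.072).

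Of 20 transcription factors linked to these receptors, 7 were called higher and 1 lower, where 6.96% and 7.96% of all measured genes were. Lef1, which marks resting T cells, fell by 3.55 on the log2 scale (SE 0.29, adjusted p = 1.1e-05). Nr4a2 rose by 3.11 (SE 0.53, adjusted p = 0.00243), Nr4a3 by 2.99 (SE 0.35, adjusted p = 2e-04), and Id2, an inhibitor of E proteins that marks effector T cells, by 2.90 (SE 0.36, adjusted p = 0.00027). Nr4a3 was detected in 3 of 3 arrays of each fat group but in 1 of 3 of each spleen group. Its smallest rise over the alternatives was 1.63. Of the list genes named so far, Rnf128 aside, several lost their calls over both genotypes in some alternatives. Without slide 3, Cd80, Cd96, Itgae, Csk, Trat1, Lax1 and Rab11a did (adjusted p 0.071 to 0.222). With median scaling, Cd48, Itgae, Ly6c1, Csk and Rab11a did (adjusted p 0.0899 to 0.121). Without a filter on dim probes, Cd80, Itgae, Ly6c1, Csk, Lax1 and Rab11a did (adjusted p 0.0545 to 0.119). Without both spleen arrays of slide 3, Cd48, Cd80, Itgae, Lax1 and Rab11a did (adjusted p 0.0814 to 0.143). Ly6c1 also did with cyclic loess (adjusted p = 0.0536). None of the genes in these lists passed between genotypes in either tissue.

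Some of the marker lists of other cells carried more signal in the fat arrays. Over both genotypes, 0 of 4 B cell markers and 0 of 3 endothelial markers were called, with median differences of -0.16 and -0.04. The same held for 0 of 8 CD8 and NK cell markers (median +0.56) and 0 of 2 stromal and mesothelial markers (median +0.9). Of the dendritic cell markers 1 of 6 was called higher, and of the granulocyte and mast cell markers 2 of 5. Of 12 measured macrophage and monocyte markers 8 were called higher in fat over both genotypes, where 6.96% of all measured genes were. Of the 8, Cd14 was detected in 0 of 3 arrays of each spleen group and Mrc1 in 1 of 3 of each. C1qc was detected in 0 of 3 spleen knockouts and 2 of 3 spleen controls. Cd14, Mrc1 and C1qc thus needed fat arrays to pass the detection filter. The mean log2 level of the 12 was 7.42 to 8.54 in fat knockouts and 7.34 to 9.76 in fat controls. In spleen it was 5.38 to 5.85 in knockouts and 5.19 to 6.59 in controls. The 2 measured adipocyte markers, Fabp4 and Pparg, read 7.89 to 9.51, 7.67 to 9.68, 4.53 to 4.64 and 4.65 to 5.52 in the same groups, and Pparg is also known as a factor of fat Tregs. Each was detected in 0 of 3 spleen knockouts and 1 of 3 spleen controls, so both passed the detection filter through fat. Of the adipocyte markers that could not be tested, Plin1 was detected in no array, Adipoq and Cidec in 1 fat knockout array each, Lep in 1 fat control array and Retn in 1 spleen knockout array. The mean of 11 T cell markers was 8.99 to 9.18 in fat knockouts, 8.70 to 9.13 in fat controls, 9.03 to 9.44 in spleen knockouts and 9.01 to 9.34 in spleen controls, and 4 of the 11 pointed up in fat. Over both genotypes 1 of them, Il2ra, was called higher, and 4 were called lower: Trat1, and Cd3d, Cd3e and Cd3g by 0.86, 0.73 and 0.73 (adjusted p 0.0184, 0.0463 and 0.0395). Foxp3 (by the probe with its highest mean), Cd2 and Cd28 pointed up and did not pass. Cd28 averaged 9.84 in fat knockouts, 9.76 in fat controls, 8.73 in spleen knockouts and 8.89 in spleen controls. The tested Foxp3 probes disagreed in sign, and none passed. Over both genotypes the probe with the highest mean differed by +0.74 (limma adjusted p = 0.357) and another by +0.36 (adjusted p = 0.434). The remaining probe, detected in 11 arrays, differed by -1.41 (adjusted p = 0.0723). The part of other cells in these values was not tested.

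Genes with the most similar profile over the 12 arrays were found by the smallest root mean square difference of log2 values after each gene was centred on its own mean, among 10024 genes. For Tigit these were Aebp2 (0.28) and Glrx (0.32), for Ctla4 Zc3h12a (0.29) and Stk4 (0.29), and for Icos Rab8b (0.23) and H2az1 (0.24). Cd44 came closest to Il7r (0.27) and Prkar2a (0.32), and Pdcd1 to Cavin3 (0.35) and Psen2 (0.36). For Cd69 they were Mfsd11 (0.34) and Tpp1 (0.37), for Havcr2 Cysltr2 (0.40) and Trp53bp2 (0.41), and for Cd83, with the largest distances of these 8 genes, Hexa (0.51) and Pgrmc1 (0.53). These are descriptions of 12 arrays that share tissue, genotype and slide.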

How the data were processed

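Tregs of 4 groups were measured on 12 arrays. Per the labels' protocols, Qiagen Allprep yielded the RNA, NuGEN kits amplified it (Ovation Pico WTA, V2) and put on biotin (Encore Biotin IL). Per the file headers, the authors deposited linear bead intensity per probe and array before any normalization. Each value comes with the authors' deposited detection p-value. They also deposited normalized intensities, which were used as an alternative. GenomeStudio is named in the submitters' processing notes, with no version. A genome build is not given in the sources used here.

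Background was corrected in R 4.3.3 by the nec function of limma 3.58.1 (negative controls inferred from the detection p-values, offset 16). The values were then log2 transformed and brought to shared quantiles. Group means were fitted by lmFit and eBayes to 20367 probes, detected in at least 3 arrays (8 residual and 3.989 prior degrees of freedom). Benjamini-Hochberg adjustment ran over all kept probes within a comparison, and an adjusted p below 0.05 was called, with no fold threshold. The median SE of a difference between 2 groups was 0.465, and the number of arrays limits precision. The script was tested on simulated data. Folds against the lowest detected signal (4.81 to 5.51 on the log2 scale) use the mean of all 3 fat arrays, detected or not. They do not allow for the spread of the arrays.

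Genes named are all members, up to 3 called genes per list and comparison by the largest change, Tbx21 and Foxp3, and the 2 nearest profiles per member. Nr4a1, Rnf128 and the cell type markers were named after their values were seen. Gene lists used 1 probe per gene, that with the highest mean. The members and lists were chosen with earlier results of these data known. Same-numbered arrays share a slide per the labels, and their deviations from the group means correlated at -0.053 to 0.355 over 18 pairs, 5 of them over 0.1. By the platform annotation 34885 probes had 1 symbol, 18 several and 10378 none. Alternatives changed the background correction, normalization, filter, slide block, arrays and probe choice.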

Additional observations from a re-analysis of the deposited data

How the results depend on the processing

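No result reversed while called. For fat minus spleen in knockouts, the count of called receptor probes (5) was 2 without a filter on dim probes, 3 in a fit of only the groups compared, 2 with 1 probe per gene, 2 without slide 3 (Ctla4 and the second Cd44 probe, neither of them among the 5) and 0 to 5 without any 1 array, with 0 without spleen knockout 1 or 2. In controls (0) it was 3 without background correction, 2 with an offset of 50, 4 with cyclic loess, 2 with median scaling, 3 with the authors' normalized values, 1 with the slide as a random block, 2 with a trend in eBayes and 0 to 2 without any 1 array. Over both genotypes (10) it was 6 without the filter, 5 with 1 probe per gene, 6 without slide 3 and 6 to 9 without any 1 array. With the replicate block for the slide the counts were 7 in knockouts, 0 in controls and 10 over both. Between genotypes, and for the difference of the genotype effect, 0 receptor probes passed under any alternative. Of all probes, 929 passed in knockouts (575 with 1 probe per gene, 526 without slide 3, 469 to 1040 without any 1 array), 950 in controls (558 in a fit of only the groups compared, 540 without slide 3, 448 to 989 without any 1 array) and 2565 over both (1570 with 1 probe per gene, 1848 to 2423 without any 1 array). The share of these that were higher was 62.3% in knockouts, 62.2% in controls and 48.3% over both, but 71.2, 71.8 and 59.1% with cyclic loess and 78.9, 75.5 and 66.2% with median scaling. Between genotypes in fat 2 of all probes passed (a probe of Slc10a7 and a probe with no symbol, named after their values were seen), but 1 without background correction, with median scaling, with the authors' values or with 1 probe per gene, and 0 with the replicate block, in a fit of only the groups compared, with a trend, without slide 3 and without its spleen arrays, and 0 to 3 without any 1 array. In spleen it was 0, and 0 to 2 without any 1 array. Causes were not tested. Alternatives without slide 3 and without its spleen arrays were chosen after seeing the data. Probes detected in few arrays, such as those of Havcr2 and Lag3, have little room to be lower in spleen.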
